A study of Rattus norvegicus with 6 samples.

Results

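The WNK kinases, the kinases they activate and the cation chloride carriers that these phosphorylate were examined in the sciatic nerve of the rat, as 9 genes of the 30957 in the deposited expression table: Wnk1, Wnk2, Wnk3, Wnk4, Stk39, Oxsr1, Slc12a2, Slc12a4 and Slc12a7. The genes were chosen by name, in part because Wnk4 had stood out for its low counts in crushed nerves in these same libraries, so the crushed against intact values of all 9 are given as a description and carry no test. Each gene matched 1 row of the table, and 8 of the 9 passed the filter on low counts, Wnk2 being the exception. RNA was sequenced from 3 intact and 3 crushed sciatic nerves of Sprague Dawley rats, with no transgene or drug named in the labels. The methods describe adult male rats and proximal stumps taken 4 days postinjury (dpi), whereas the labels give no age, sex or time point. The methods also describe the intact nerves as those of the opposite side, whereas the labels say only normal sciatic nerve tissue. If they were, any effect of the operation on the whole animal is present in both groups.

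WNK kinases are named for the absence of a lysine from its usual place in the catalytic site. They respond to chloride and osmotic stress and activate the closely related kinases SPAK, encoded by Stk39, and OSR1, encoded by Oxsr1. Those kinases phosphorylate and activate the sodium potassium chloride cotransporter NKCC1 (Slc12a2), which brings chloride into the cell, and phosphorylate and inhibit the potassium chloride cotransporters KCC1 (Slc12a4) and KCC4 (Slc12a7), which let it out. Together they set cell volume and intracellular chloride. In peripheral nerve, mutations in a nervous system exon of WNK1 cause a hereditary sensory neuropathy.

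The counts on genes summed to between 24844371 and 27139360 per nerve. The marker genes fixed for the tissue did not match the labelled tissue in either group: most defining Schwann cell and leukocyte markers were at or near 0 and proliferation markers were high. The libraries are called nerves here after their labels, and which cells gave the RNA was not tested. Of 11 Schwann cell markers, 6 had at most 3 counts in any nerve (Sox10, S100b, Mbp, Mag and Cdh19 among them), as did 5 of 8 macrophage and leukocyte markers, Ptprc among them at 0. The summed level of the Schwann cell list was between 43.1 and 45.1 CPM in intact nerves and between 41.9 and 43.7 CPM in crushed nerves, most of it Pmp22. CPM here are counts relative to a library total scaled by TMM. That of the macrophage list was between 1.93 and 3.11 and between 2.42 and 3.15, whereas the 4 proliferation markers summed to between 2850 and 3065 and between 2721 and 2854. Of the marker genes, 4 passed an adjusted p under 0.05 (edgeR, Benjamini-Hochberg), all lower in crushed nerves: Erbb3, Col1a1, Col3a1 and Pdgfrb. Over all genes tested 1.65% fell at this threshold. Erbb3 was 1 of 4 Schwann cell markers tested, and the others were among 6 of the fibroblast and perineurium list. In that list Pdgfra (log2 fold change 0.19), Slc2a1 (-0.04) and Cldn1 (-0.56) did not pass, and Col3a1 had only between 3 and 23 counts. The part of these marker genes in the values below was not tested. In such bulk RNA, fewer cells of a type and less RNA per cell cannot be told apart.

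Stretches of DNA upstream of 3 of the genes are shown because these genes are the most abundant member (Wnk1), the member with the largest difference between the groups (Wnk4) and the carrier that brings chloride in (Slc12a2). They come from RefSeq on the GRCr8 assembly, read 5′ to 3′ on the strand of the gene, and stop before the outermost annotated start of the gene. Capitals mark the GC box, searched as GGGCGG on both strands.

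Wnk4, chr10:86702708-86702827, plus strand: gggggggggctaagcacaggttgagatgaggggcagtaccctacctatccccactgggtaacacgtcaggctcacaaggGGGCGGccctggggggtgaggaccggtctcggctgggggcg

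Wnk1, chr4:154926148-154926397, minus strand: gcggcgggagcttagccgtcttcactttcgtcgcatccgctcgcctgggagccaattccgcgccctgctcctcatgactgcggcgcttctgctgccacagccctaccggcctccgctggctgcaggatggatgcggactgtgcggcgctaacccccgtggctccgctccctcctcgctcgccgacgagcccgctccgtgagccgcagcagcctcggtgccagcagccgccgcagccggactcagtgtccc

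Slc12a2, chr18:53546083-53546262, plus strand: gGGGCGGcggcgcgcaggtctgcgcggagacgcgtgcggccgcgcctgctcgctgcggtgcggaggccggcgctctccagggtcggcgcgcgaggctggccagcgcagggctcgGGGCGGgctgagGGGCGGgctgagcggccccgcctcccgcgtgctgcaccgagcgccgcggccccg

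The stretches differ in length, with 120 bases for Wnk4, 250 for Wnk1 and 180 for Slc12a2, and end 130, 0 and 70 bases before the start that RefSeq's window uses, so their GC boxes are not compared. Over equal windows of 300 bases around the start, Wnk4 held 4 GC boxes, Slc12a2 held 3 and Wnk1 held 0. RefSeq gave 10 such promoter windows for the 9 genes, with 2 for Wnk3. A GC box was found in 7 of the 10, against 33.1% of the 33469 windows of all genes, and the CCAAT box, searched as CCAAT, in 2 of the 10, against 37.5%. The 7 windows with a GC box held between 56.0% and 80.7% G and C bases, against a median of 51.7% over all windows. The windows without one held 71.0% for Wnk1 and 57.0% and 35.7% for Wnk3. The part of base composition in the share of 7 of 10 was not tested. None of the 10 windows held a match to the AP-1 motif TGANTCA, to the NF-kB motif or to the tonicity element TonE, which were present in 7.33%, 7.51% and 5.98% of all windows. These are matches of letters, and the absence of a match says nothing about the binding of a factor.

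Levels were compared between genes on the FPKM scale, which divides each count by the length of the gene and by the library total. Wnk1 was the most abundant member, with 151, 149 and 157 FPKM in intact nerves 1, 2 and 3, against 146, 149 and 153 FPKM in crushed nerves 1, 2 and 3. It held between 88.1% and 88.6% of the summed FPKM of the 4 WNK genes in intact nerves and between 88.2% and 88.8% in crushed nerves. In intact nerves it was followed, by median FPKM, by Slc12a2 (63.5), Oxsr1 (47.9), Slc12a4 (23.8), Wnk3 (18.9), Stk39 (5.06), Slc12a7 (4.19), Wnk4 (1.23) and Wnk2 (0). The ranges of 3 nerves did not overlap between any neighbours in this order.

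In crushed nerves the order was the same except that Slc12a7 (median 4.98 FPKM) stood above Stk39 (median 4.71 FPKM). Their ranges did not meet there either, with Slc12a7 between 4.92 and 5.09 FPKM and Stk39 between 4.12 and 4.83 FPKM.

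**Figure D1:**
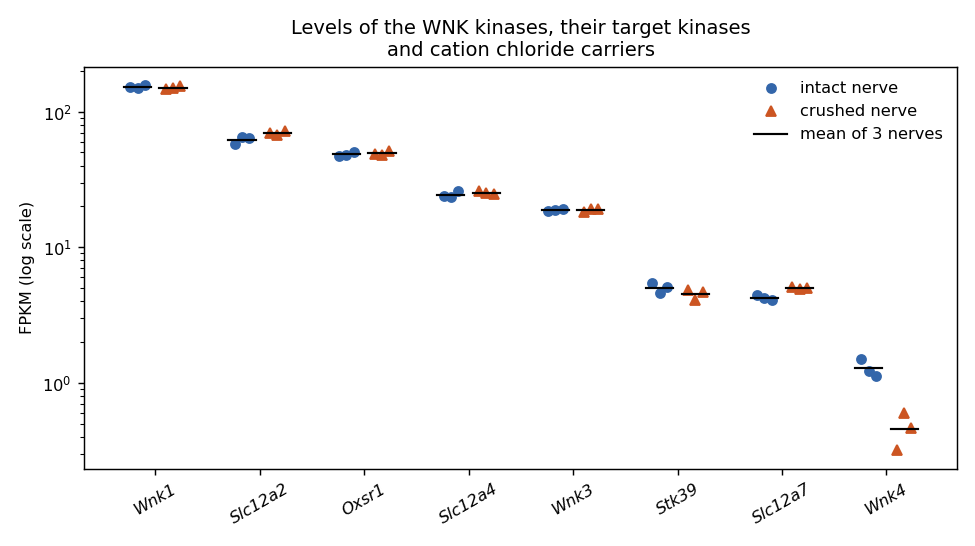
FPKM of 8 members in each nerve on a log axis (circles, intact; triangles, crushed; bars, mean of 3 nerves), ordered by the intact median. Wnk2, at 0 in 2 intact nerves, is not drawn. Wnk1 lies highest between 146 and 157 FPKM, and Wnk4 lies lowest with its triangles, between 0.318 and 0.602 FPKM, under its circles, between 1.131 and 1.499 FPKM.

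Of the WNK genes, Wnk4 alone was apart between the groups. Wnk4, on chromosome 10 from 89181165 to 89198213 of Rnor_6.0, is best known as a regulator of salt transport in the distal kidney. It was counted 240, 204 and 176 times in intact nerves 1, 2 and 3, against 54, 102 and 72 times in crushed nerves 1, 2 and 3. The groups did not overlap, with intact nerve 1 the highest and crushed nerve 1 the lowest of the 6. After normalization the level was 8.11 ± 1.23 CPM in intact nerves (SD, n = 3) and 2.87 ± 0.890 CPM (SD, n = 3) in crushed nerves. The log2 fold change, crushed over intact, was -1.498 with a standard error of 0.198, a level 2.82-fold lower in crushed nerves. Of the 12393 genes tested 3 had a lower log2 fold change. Since Wnk4 was chosen in part for its low counts in these libraries, nothing is read from this rank. With 1 nerve left out at a time the log2 fold change of Wnk4 ran from -1.75, without crushed nerve 2, to -1.28, without crushed nerve 1.

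By the limits in the study's methods, an absolute log2 fold change above 1 and an unadjusted p under 0.001, Wnk4 was the 1 member called of the 8 that passed the filter. Over all genes tested 0.282% were called and 0.0646% were called lower in crushed nerves. Since the selection used this contrast, nothing is read from the 1 of 8.

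The Wnk4 gene overlapped other gene models whose counts differed in the opposite direction. In the deposited table the whole span of Wnk4 lies within that of an unnamed gene, Rn60_10_0891.3, which runs on chromosome 10 from 89173843 to 89208961 and also spans Vps25 and Coa3. Rn60_10_0891.3 was counted 52, 68 and 53 times in intact nerves 1, 2 and 3, against 153, 84 and 130 times in crushed nerves 1, 2 and 3. It was thus high where Wnk4 was low, and crushed nerve 1 held both the highest count of Rn60_10_0891.3 and the lowest of Wnk4. Rn60_10_0891.3 rose by 1.03 on the log2 scale, with adjusted p = 0.0326 (standard error 0.222; edgeR, Benjamini-Hochberg). This model was added because it spans Wnk4 and after its values were seen, so this p-value is a description. Whether its counts are independent of those of Wnk4 was not tested. Wnk4 held between 75.0% and 82.2% of the summed counts of the 2 models in intact nerves and between 26.1% and 54.8% in crushed nerves.

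The summed counts of Wnk4 and Rn60_10_0891.3 were 292, 272 and 229 in intact nerves 1, 2 and 3, against 207, 186 and 202 in crushed nerves 1, 2 and 3. Crushed nerves were still below intact nerves without overlap, but the distance was smaller. On the normalized scale the sum was 10.4 ± 1.15 CPM in intact nerves (SD, n = 3) and 7.497 ± 0.610 CPM (SD, n = 3) in crushed nerves, a log2 fold change of -0.47 with a standard error of 0.111 and a 95% interval from -0.71 to -0.22. The sum therefore did not reach the limit of 1 on the log2 scale, and no member was called when it was used. This summing was chosen after the values were seen.

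A further gene of 308 bases, LOC100360002, lies inside Wnk4 and is described in the table as similar to Usmg5. The origin of its reads was not tested. It was counted 654, 907 and 998 times in intact nerves 1, 2 and 3, against 2842, 2754 and 923 times in crushed nerves 1, 2 and 3. Crushed nerve 3 thus lay among the intact nerves. With LOC100360002 added to the other 2 models, the summed counts were 946, 1179 and 1227 in intact nerves 1, 2 and 3, against 3049, 2940 and 1125 in crushed nerves 1, 2 and 3, and the direction turned, with a log2 fold change of 1.01 and a 95% interval from 0.42 to 1.60. LOC100360002 held most of this sum in each nerve, and alone its log2 fold change was 1.27 with a standard error of 0.313. The sum therefore mainly follows LOC100360002 and does not give the direction of Wnk4 itself. The direction of the summed counts thus depended on which models were counted together, a choice also made after the values were seen. Next to Wnk4, Vps25, which encodes a subunit of the ESCRT-II sorting complex, was counted 230, 328 and 282 times in intact nerves, against 881, 311 and 258 times in crushed nerves 1, 2 and 3. Rn60_10_0890.5, whose span holds that of Vps25 in full, was counted 796, 676 and 709 times in intact nerves, against 34, 692 and 641 times in crushed nerves. Here crushed nerve 1 was high in the one and low in the other, while their sum stayed between 899 and 1026 counts in the 6 nerves. Whether reads passed from 1 model to another in the counting was not tested. Among all genes tested, 11.1% overlapped the span of another gene tested. No other member had this, as the gene models that overlap Wnk1 and Wnk3 had at most 1 count in any nerve and none overlapped the remaining 6.

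**Figure D2:**
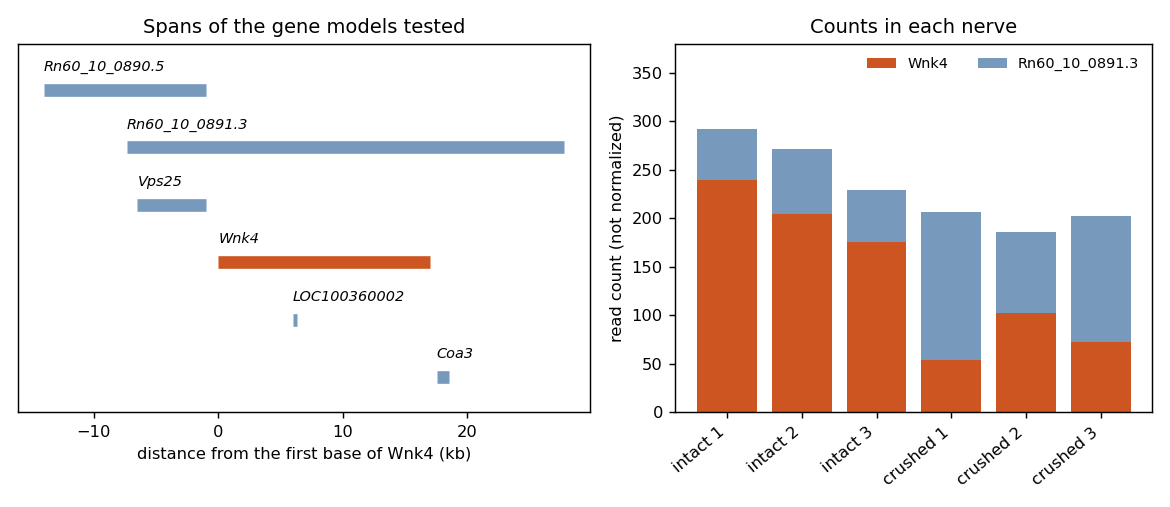
Left, spans of the 6 gene models tested around Wnk4 (red), by distance from its first base in kb. Right, counts of Wnk4 (red) and of Rn60_10_0891.3 (blue) stacked in each nerve; the red part is between 176 and 240 counts in intact and between 54 and 102 in crushed nerves, and the stack between 229 and 292 and between 186 and 207.

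The other WNK genes showed no such distance. Wnk1, on chromosome 4 from 152452848 to 152578446, ranged from 46657 to 49042 counts over the 6 nerves, and the groups overlapped. Its log2 fold change was -0.05 with a 95% interval from -0.13 to 0.03. In percent of the intact level the interval runs from -8.56% to 2.23%.

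Wnk3, on chromosome X from 20316893 to 20454357, encodes a WNK kinase prominent in neurons. It had between 3208 and 3516 counts, with 18.5, 18.9 and 19.2 FPKM in intact nerves 1, 2 and 3, against 18.1, 19.2 and 19.1 FPKM in crushed nerves 1, 2 and 3. The groups overlapped, and the log2 fold change was -0.02 with a 95% interval from -0.12 to 0.07. The ratio of Wnk3 to Wnk4 FPKM was between 12.4 and 16.96 in intact nerves and between 31.9 and 56.9 in crushed nerves.

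Wnk2, on chromosome 17 from 15924048 to 16032420 and known chiefly from brain, was counted 1, 0 and 0 times in intact nerves 1, 2 and 3, against 1, 5 and 1 times in crushed nerves 1, 2 and 3. A level of 3 counts, taken as the floor, was exceeded in crushed nerve 2 only, so no difference was detectable at this depth and no fold is given. Summed over the 4 genes, the WNK level was between 169 and 178 FPKM in intact nerves and between 164 and 173 FPKM in crushed nerves, which overlapped.

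Of the kinases downstream of the WNKs, Oxsr1 was close to level between the groups. Stk39 was 10.7% lower in crushed nerves, with groups that overlapped. Oxsr1, on chromosome 8 from 127920349 to 128009951, had 46.8, 47.9 and 50.3 FPKM in intact nerves 1, 2 and 3, against 48.5, 48.1 and 50.9 FPKM in crushed nerves 1, 2 and 3. The groups overlapped, and the log2 fold change of Oxsr1 was 0.01 with a 95% interval from -0.09 to 0.10. Stk39, on chromosome 3 from 54359451 to 54625414, had 5.45, 4.60 and 5.06 FPKM in intact nerves, against 4.83, 4.12 and 4.71 FPKM in crushed nerves 1, 2 and 3. Crushed nerves tended to the low side but crushed nerves 1 and 3 lay above intact nerve 2. The log2 fold change of Stk39 was -0.16 with a 95% interval from -0.36 to 0.03. Oxsr1 exceeded Stk39 in each nerve, with a ratio of FPKM between 8.59 and 10.4 in intact and between 10.04 and 11.7 in crushed nerves.

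Among the carriers, Slc12a2 and Slc12a7 stood higher in each crushed nerve than in any intact nerve, by small amounts. Slc12a2, on chromosome 18 from 52917124 to 52985261, had 57.6, 64.6 and 63.5 FPKM in intact nerves 1, 2 and 3, against 69.3, 67.3 and 72.0 FPKM in crushed nerves 1, 2 and 3. The highest intact and the lowest crushed nerve were 64.6 and 67.3 FPKM, and intact nerve 1 was the lowest of all. The normalized level was 399 ± 23.0 CPM in intact nerves (SD, n = 3) and 442 ± 14.7 CPM (SD, n = 3) in crushed nerves, 11.0% higher, a difference of 0.15 on the log2 scale (standard error 0.0484, 95% interval from 0.04 to 0.26).

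Slc12a7, on chromosome 1 from 32086755 to 32141036, had 4.45, 4.19 and 4.09 FPKM in intact nerves 1, 2 and 3, against 5.09, 4.92 and 4.98 FPKM in crushed nerves 1, 2 and 3. Its nerves kept close together within each group. The normalized level was 31.8 ± 1.48 CPM in intact nerves (SD, n = 3) and 36.9 ± 0.615 CPM (SD, n = 3) in crushed nerves, 16.3% higher, a difference of 0.22 on the log2 scale (standard error 0.0586, 95% interval from 0.09 to 0.35).

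Slc12a4, on chromosome 19 from 37917014 to 37938857, had 23.8, 23.3 and 26.0 FPKM in intact nerves 1, 2 and 3, against 25.8, 24.98 and 24.5 FPKM in crushed nerves 1, 2 and 3. The groups overlapped, and the log2 fold change of Slc12a4 was 0.03 with a 95% interval from -0.09 to 0.14. The ratio of Slc12a4 to Slc12a7 FPKM was between 5.35 and 6.36 in intact nerves and between 4.92 and 5.08 in crushed nerves, without overlap. The ratio of the inward carrier Slc12a2 to the summed FPKM of the outward carriers Slc12a4 and Slc12a7 was between 2.04 and 2.35 in intact nerves and between 2.24 and 2.44 in crushed nerves, with overlap.

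The groups did not overlap on the normalized scale for 3 of the 8 members that passed the filter, Wnk4, Slc12a2 and Slc12a7. The same held for 23% of all genes tested, and nothing is read from the count of members. On the log2 scale Wnk4, at -1.498, was the 1 member beyond the limit of 1, and the next in size was Slc12a7 at 0.22. The 95% interval of Wnk4 ran from -1.94 to -1.06, so its smaller end in size lay close to the limit. Wnk4 summed with the gene model that spans it, at -0.47, did not reach the limit.

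**Figure D3:**
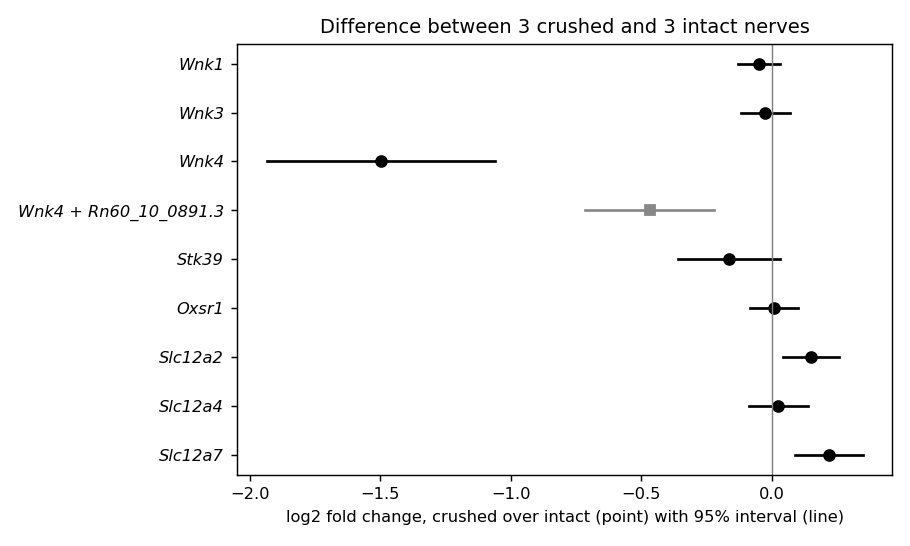
Log2 fold change of 8 members, crushed over intact (black points, with 95% intervals as lines; 3 nerves per group), and of Wnk4 summed with the gene model that spans it (grey square). Wnk4 lies at -1.498 and the sum of these 2 models at -0.47 (a sum that adds LOC100360002, at 1.01, is not drawn), and the other members lie between -0.16 and 0.22.

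Other genes of the pathway were taken from 6 lists with 90 names, of which 65 genes could be tested, and 1 of the 65 passed an adjusted p under 0.05. This was Sgk1, which fell. Over all genes tested 3.12% passed this threshold, of which 1.47% rose and 1.65% fell, so 1 of 65, or 1.54%, was not above the background. The median log2 fold change of the 65 was -0.01 and that of all 12393 genes tested was -0.0017. DESeq2 called 3 of the 65, of which 1 rose and 2 fell, against 1.88% of all genes that rose and 2.5% that fell by that tool. An unadjusted p under 0.05 was reached by 15 of the 65 and by 16.2% of all genes tested. None of the 65 was past the limits of the methods.

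Sgk1 was among 15 partners and regulators of the WNK kinases, SPAK and OSR1 that were tested. It encodes a kinase induced by corticosteroids and cell shrinkage that acts with WNK4 on sodium transport, and was counted 5133, 5520 and 4902 times in intact nerves 1, 2 and 3, against 5089, 4670 and 4468 times in crushed nerves 1, 2 and 3. Its log2 fold change was -0.18, with adjusted p = 0.0494 (standard error 0.0438; edgeR, Benjamini-Hochberg), close to the threshold, and adjusted p = 0.0829 with the replicate number as a block. It was called in 1 of 10 alternatives. Tsc22d2, which encodes a member of a family tied to WNK signalling, differed by 0.22 on the log2 scale (adjusted p = 0.0541), Sgk3 of -0.22 (adjusted p = 0.223) and Ppp1cc, a catalytic subunit of protein phosphatase 1, of 0.10 (adjusted p = 0.332), none of which passed. Klhl3, the adaptor that hands WNK kinases to the Cul3 ubiquitin ligase, had between 27 and 51 counts per nerve and a log2 fold change of -0.44 with a standard error of 0.222. Cul3 itself, and Cab39, which encodes the scaffold MO25 that stimulates SPAK and OSR1, had log2 fold changes of 0.04 and 0.01.

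Of the other carriers of the SLC12 family, 3 of 6 could be tested, of which 0 passed by the test of edgeR and 1 had an unadjusted p under 0.05, against 16.2% of all genes. Slc12a5, which encodes the neuronal carrier KCC2, had between 28 and 52 counts and a log2 fold change of -0.40 (adjusted p = 0.383), and Slc12a9 one of -0.03 (adjusted p = 0.870). Of the renal carrier genes, Slc12a1 had 0 counts in each nerve and Slc12a3 had between 5 and 15.

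Among 19 kinases of the Ste20 group, to which Stk39 and Oxsr1 belong, 0 passed an adjusted p under 0.05 and 7 had an unadjusted p under 0.05, against 16.2% of all genes (quasi-likelihood test of edgeR). Their median log2 fold change was -0.08, and 4 of 19 had a positive value, against 49.4% of all genes tested. Those with the smallest p were Stk10 (log2 fold change -0.22, adjusted p = 0.0508), Mink1 (-0.14, adjusted p = 0.0866), Stk26 (-0.32, adjusted p = 0.0877) and Slk (-0.17, adjusted p = 0.113).

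Of 13 chloride and volume-regulated channel genes tested, 0 passed by edgeR's test and 0 had an unadjusted p under 0.05, against 16.2% of all genes. Their log2 fold changes lay between -0.12 and 0.10. Lrrc8a, which encodes the obligatory subunit of the volume-regulated anion channel, had a log2 fold change of -0.04 (standard error 0.0560). The smallest p in this list were those of Ano10 (log2 fold change 0.10, adjusted p = 0.343), Lrrc8e (-0.12, adjusted p = 0.370), Ano6 (0.07, adjusted p = 0.407) and Clcn3 (0.06, adjusted p = 0.514).

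Of 9 genes of sodium pumps, exchangers and bicarbonate carriers tested, 0 passed by edgeR's test and 2 had an unadjusted p under 0.05, against the same 16.2%. Slc4a4, which encodes a sodium bicarbonate cotransporter, was counted 142, 152 and 154 times in intact nerves 1, 2 and 3, against 219, 205 and 188 times in crushed nerves 1, 2 and 3. Its groups did not overlap, and crushed nerves stood 0.39 higher on the log2 scale (standard error 0.1003), which did not pass (adjusted p = 0.0684). The others with the smallest p were Slc4a7 (0.12, adjusted p = 0.251), Atp1b3 (0.08, adjusted p = 0.482) and Atp1b1 (-0.04, adjusted p = 0.809).

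Of 6 genes of the tonicity response and of osmolyte carriers tested, 0 passed by edgeR's test and 2 had an unadjusted p under 0.05, against the same 16.2%. The smallest p were those of the water channel gene Aqp1 (log2 fold change 0.12, adjusted p = 0.257), Hspa4l (-0.15, adjusted p = 0.294), Akr1b1, the aldose reductase gene (0.12, adjusted p = 0.425), and the amino acid carrier gene Slc38a2 (0.06, adjusted p = 0.483). Nfat5, which encodes the transcription factor of the osmotic response, had between 10862 and 14131 counts and a log2 fold change of -0.01 (standard error 0.0964).

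**Figure D4:**
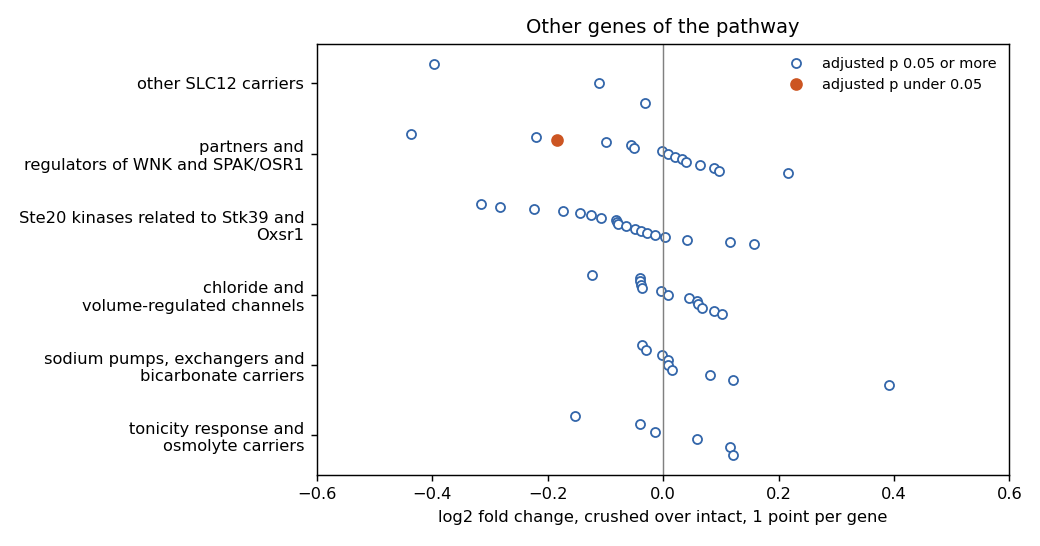
Log2 fold change of the 65 pathway genes tested, crushed over intact, 1 point per gene in 6 lists; the filled point is Sgk1, the 1 gene with an adjusted p under 0.05. The points lie between -0.44 and 0.39.

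Likeness to a member was measured as the root mean square difference between profiles of log2 CPM over the 6 nerves, each gene centred on its own mean. A small constant was added to the CPM before the log, which shrinks differences at low counts. For Wnk4 the 5 nearest of the genes tested were AY172581.14 (0.328), Mmp13 (0.334), Plcd4 (0.334), Qpct (0.368) and Ptpn7 (0.373). All 5 were lower in each crushed nerve than in any intact nerve, which follows largely from choosing profiles near that of Wnk4. Groups did not overlap, in either direction, for 23% of all genes tested. Mmp13, which encodes a collagenase, had between 8628 and 10143 counts in intact and between 4671 and 5306 in crushed nerves, whereas Ptpn7 had between 1 and 20 in the 6 nerves. For Slc12a2 the nearest were Alg10 (0.0124), Spcs3 (0.0152) and Pik3c3 (0.0157), and for Slc12a7 they were RT1-CE2 (0.0155), Ndrg1 (0.0200) and Nid2 (0.0215). Genes were ranked on the same 6 nerves that chose Wnk4, so these values are a description.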

How the data were processed

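RNA-seq counts of 3 crushed and 3 intact rat sciatic nerves were analysed. The deposited table holds counts of reads per Ensembl gene, not normalized, and FPKM values made by the authors, which divide a count by gene length and library total. The submitters' processing notes name HISAT2, StringTie 1.3.0 and Rnor_6.0, without roles. The rule for reads on overlapping genes and the use of strand are not given in the sources used here. The methods name RNase R digestion, which the labels do not, and 0 other columns of values were present.

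Genes were tested with edgeR 4.0.16 (limma 3.58.1, R 4.3.3), using the quasi-likelihood test, TMM normalization, the filterByExpr filter and no replicate block, with p-values adjusted over 12393 genes. Standard errors were taken from the test statistic, and 95% intervals use its degrees of freedom. The design text calls the replicates biological, but nothing ties a nerve to a rat, so p-values may measure only the spread between these samples. Replicates differed by more than sampling noise (chi-square from 3.27 to 11.8 per degree of freedom). Wnk2 was taken from counts without the filter. The floor of 3 counts covers counting error only.

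The members and lists were chosen with earlier results of these data known. Named genes were the members, up to 4 genes per list with the smallest p, the nearest profiles, and marker genes at 0 or leading their list. Klhl3, Cul3, Cab39, Lrrc8a, Nfat5, the untested carriers and the neighbours of Wnk4 were added after their values were seen. Of the fixed names, Slc5a3 and Pecam1 matched no row. The fit was tested on simulated data. Promoters came from RefSeq (GRCr8). Protein sequences were not used here. Some genes counted in the lists are not reported here by name. The alternatives were the block, DESeq2 1.42.0, no filter, limma on log2(FPKM + 0.1), FPKM with TMM-scaled totals, each nerve left out and, added after seeing the data, summed counts of overlapping models.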

Additional observations from a re-analysis of the deposited data

How the results depend on the processing

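All 80 recomputed log2 fold changes of the members, over 10 alternatives, moved by less than the replicate SD, and 76 kept their sign. The Wnk4 result depended on how overlapping models were counted, in alternatives added after seeing the data. The sum of Wnk4 and Rn60_10_0891.3 had a log2 fold change of -0.47, with 0 members past the limits of the methods. The sum that also held LOC100360002, and consisted mostly of its counts, had one of 1.01, with 0 members past them. The read assignment behind this was not tested. Of the pathway genes, 0 had an adjusted p under 0.05 with the replicate block, without the filter or with limma, 3 with DESeq2, and 0 to 2 with 1 nerve left out, the 2 being without intact nerve 1. Over all genes 387 passed, 511 with DESeq2, 369 without the filter, 242 with limma and 179 to 392 with 1 nerve left out; without intact nerve 2 and without crushed nerves 1, 2 and 3 the counts were 251, 179, 183 and 211. For these counts the cause was not tested. The replicate block gave 300 genes, 284 of them among the 387, and -1.51 for Wnk4. Correlations of the deviations of same-numbered nerves ran from -0.0148 to 0.0756, and no label ties a number to a rat, so whether same-numbered nerves came from 1 rat was not settled. Groups of 3 nerves and counts at the floor, as for Wnk2, limit what could be detected.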

Other observations

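Of the 35 genes past the limits of the methods, 7 (20.0%) overlapped the span of another gene tested, against 11.1% of the 12393 genes tested. Of the 8 that were lower in crushed nerves 2 did. Wnk4 and Rn60_10_0891.3, which prompted the count, are among the 7, and Wnk4 is among the 2. Nothing is therefore read from these shares. In another pair of overlapping models, next to Wnk4, the split of counts in 1 crushed nerve differed from that in the other nerves of its group. Vps25 held 96.3% of the counts summed over Vps25 and Rn60_10_0890.5 in crushed nerve 1, but 31.0% and 28.7% in crushed nerves 2 and 3 and between 22.4% and 32.7% in intact nerves. These values were looked at after those of Wnk4 were seen, and the rule that assigned the reads was not tested.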
